A study of Saccharomyces cerevisiae with 16 samples.

Results

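The 10 genes described here encode plasma membrane permeases of yeast that take up amino acids or ammonium: GAP1, MEP1, MEP2, MEP3, AGP1, BAP2, BAP3, TAT1, TAT2 and MUP1. They were chosen by name from 6002 nuclear protein-coding genes, with earlier results of these data known. All 10 passed the coverage minimum that left 5733 genes for testing. For each gene H3K18ac, the acetylated form of a lysine in the tail of histone H3, was measured by chromatin immunoprecipitation and sequencing in a window of 600 bp centred on the start codon, 300 bp to either side. The H3K18ac level is the mean read coverage of that window divided by the mean nuclear coverage of the same library, so that a value of 1 equals the average of the nuclear genome.

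The cells were strain ZKY329, a CEN.PK MATa yeast that carries SPT7-FLAG::natMX at every time point, collected from a continuous culture that went through the Yeast Metabolic Cycle (YMC), the respiratory oscillation of glucose-limited yeast. The Spt7 protein is a subunit of the acetyltransferase complex SAGA, and no strain without the tag was compared. Each of 16 time points between 48.32 and 51.95 h had 1 library, so no time point has a replicate. Time points 3 to 5 lie in the oxidative phase (OX), 6 to 11 in the building phase (RB) and the others in the charging phase (RC). These phases come from the oxygen curve of the culture and not from the sample labels, and they serve for orientation only.

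Yeast acquires nitrogen through permeases whose genes are controlled by the quality and the kind of nitrogen source. Nitrogen catabolite repression keeps GAP1 and the ammonium permease genes low on preferred sources through GATA factors. The SPS sensor at the plasma membrane (Ssy1, Ptr3 and Ssy5) responds to external amino acids. It induces permease genes that include AGP1, BAP2, BAP3 and TAT1. Acetylation of H3K18 is placed mainly by Gcn5 within SAGA and marks the starts of active genes.

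The library of time point 14 was the shallowest, with a mean nuclear coverage of 27.5 reads per base, and that of time point 15 the deepest, with 39.4. At 51 bp per read the libraries held at least 6521927 to 9359720 reads. No base had a coverage above 102, and the read length of 51 bp was inferred from this ceiling. The ceiling compresses the values of strongly acetylated genes. Over all 5733 genes the median log2 level was lowest at time point 10 (0.70) and highest at time point 3 (0.97), so part of any time course is shared by most genes. H3 libraries were not used here, and nucleosome density and acetylation per nucleosome cannot be told apart.

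The permease genes differed in their H3K18ac level, but most neighbours in the order were closer than their spread over time. MEP1 had the highest mean level over the 16 time points, 2.63 ± 0.266 (SD over time points, n = 16), and stood at percentile 98.5 of the genes tested. GAP1 followed with 2.56 ± 0.328, MEP2 with 2.43 ± 0.249, AGP1 with 2.34 ± 0.248, TAT2 with 2.16 ± 0.378 and BAP2 with 2.08 ± 0.229. The gaps between these 6 genes were smaller than the SD, and that of 0.322 between BAP2 and MEP3 was larger. As all genes were measured in the same libraries, the order was also read time point by time point: MEP1 was above GAP1 at 10 of 16 time points, GAP1 above MEP2 at 9, MEP2 above AGP1 at 12, AGP1 above TAT2 at 14, TAT2 above BAP2 at 10 and BAP2 above MEP3 at 12. MEP3 had a mean of 1.76 ± 0.239 and MUP1 of 1.74 ± 0.544, which lay near the all-gene median of 1.68. TAT1 had 1.44 ± 0.303 and was below MUP1 at 14 of 16 time points. BAP3 was the lowest at 0.881 ± 0.0825, at percentile 6.51, and lay below TAT1 at all 16 time points. BAP2 and BAP3 both encode permeases of branched-chain amino acids, and the lowest level of BAP2, 1.77, was above the highest of BAP3, 1.03. GAP1, MEP1, MEP2, AGP1 and BAP2 were above the all-gene median at 16 of 16 time points, whereas BAP3 was above it at 0 and TAT1 at 2.

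The time courses were tested with a cubic curve over the numbered time points, fitted to all genes by limma. A gene is called when the adjusted p is under 0.05 and the curve explains at least 0.6 of the variance (R squared). By this rule 4 of the 10 permease genes changed over the cycle, GAP1, MEP3, TAT2 and MUP1, against 52.2% of all genes tested, so the share called was not above the background. The adjusted p alone was under 0.05 in 5 of the 10 genes, the additional gene being MEP2, against 72.8% of all genes. With a cosine and sine in place of the cubic, 10 of 10 genes had an adjusted p under 0.05 in limma. Of these 5 were called, against 3091 of all 5733 genes. The share of all genes by adjusted p alone was not counted for that fit. The range between the highest and the lowest time point had a median of 0.57 (log2) in the permease genes and of 0.56 in all genes. A range over 1 was found in 2 of the 10 genes, TAT2 and MUP1, against 19.9% of all genes, and without time point 12 the range of TAT2 was 0.63. The test takes the 16 time points as independent although neighbours resemble each other, and time points stand in for replicates. With the hours of sampling in place of the time-point number, 0 of the 10 genes were called by limma. Over all genes tested the count also fell, to 1335 of 5733 in place of 2995. Of the 10 permease genes, 3 had an adjusted p under 0.05 in that limma fit and 5 an unadjusted p under 0.05.

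**Figure D1:**
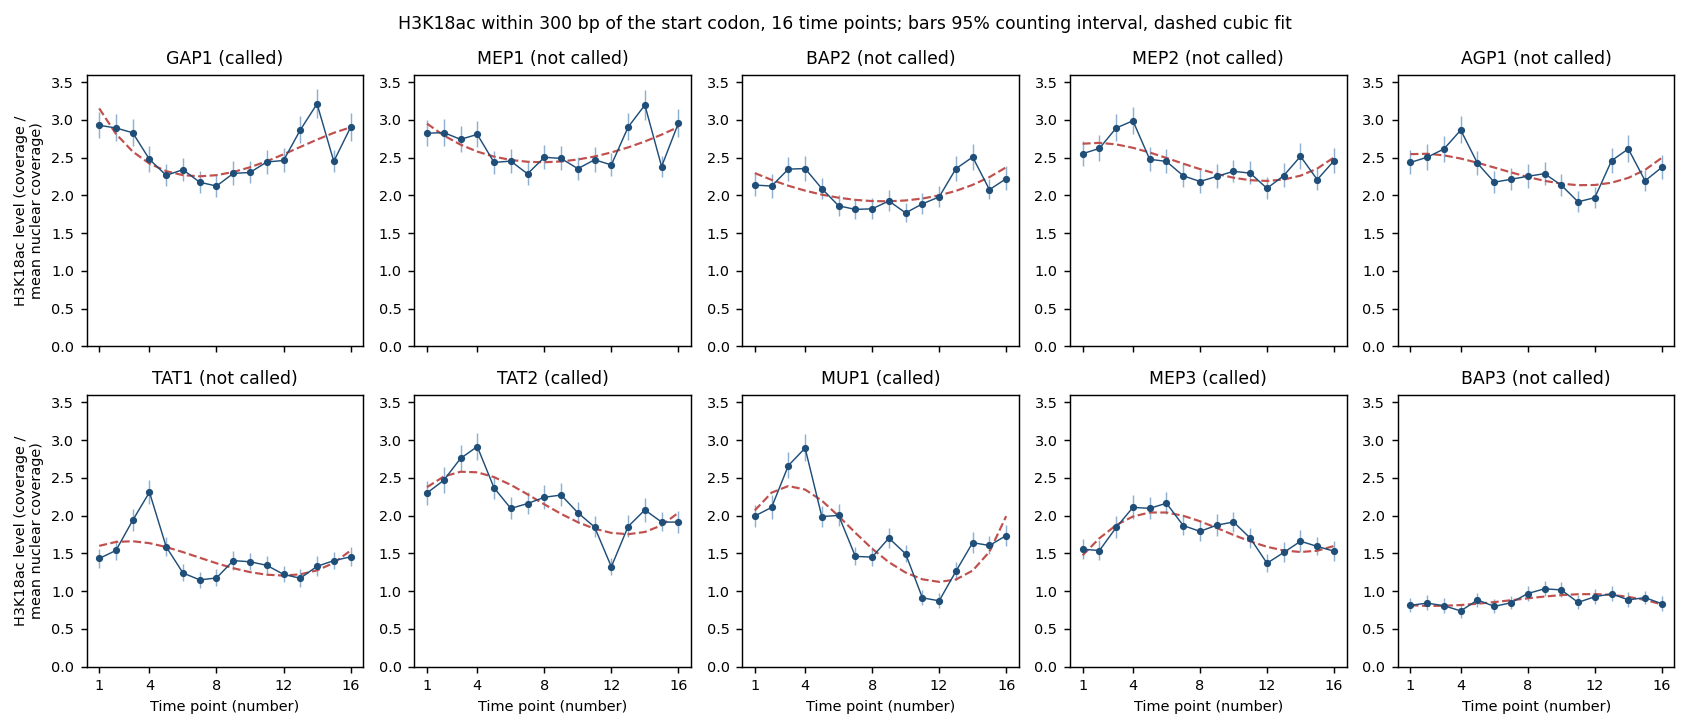
H3K18ac level (window coverage divided by the mean nuclear coverage, vertical axis) of each permease gene at time points 1 to 16 (horizontal axis). Points are single libraries with 95% counting intervals and the dashed line is the cubic fit. TAT1, TAT2 and MUP1 stand highest at time point 4, GAP1, MEP1 and BAP2 at time point 14, and BAP3 stays between 0.737 and 1.03.

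MUP1 encodes the high-affinity methionine permease and had the largest range of the 10 genes. Its level was 1.99, 2.11, 2.66 and 2.89 at time points 1 to 4, then 1.99 and 2.00 at time points 5 and 6. It was 1.46, 1.45, 1.70 and 1.49 at time points 7 to 10, and dropped to 0.910 and 0.871 at time points 11 and 12. From there it was 1.26, 1.64, 1.60 and 1.73 at time points 13 to 16. MUP1 thus rose into OX and fell to a low point at the border of RB and RC, with a ratio of 3.32 between time points 4 and 12 (95% counting interval 2.94 to 3.77). The fitted curve explained 0.74 of the variance (limma, adjusted p = 0.000546, residual SD 0.25 on the log2 scale), and the range of 1.63 lay at percentile 94.1 of all genes. The sharpest step down, between time points 10 and 11, took 0.16 h and was 1.64-fold (interval 1.44 to 1.88). The sharpest step up followed between time points 12 and 13, 0.17 h apart, and was 1.45-fold (1.26 to 1.67). At time point 4, 52.7% of the bases of the window had a coverage of at least 92, within 10 reads of the ceiling, and after a correction for the ceiling the ratio between time points 4 and 12 was 7.36.

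TAT2 encodes the high-affinity permease of tryptophan and tyrosine, and its time course resembled that of MUP1 (r = 0.88 over 16 time points). Levels of TAT2 were 2.30, 2.47, 2.76 and 2.91 at time points 1 to 4, between 2.04 and 2.37 at time points 5 to 10, and 1.85 and 1.32 at time points 11 and 12. After that they lay between 1.85 and 2.07. TAT2 fell over the cycle from an early maximum (R squared 0.64, limma, adjusted p = 0.0036, residual SD 0.17), with a ratio of 2.20 between time points 4 and 12 (interval 1.98 to 2.46). Between time points 11 and 12 alone the level dropped 1.40-fold (1.25 to 1.57), and by time point 13 it was back at 1.85. The range of TAT2, 1.08 on the log2 scale, rested on this library, and without time point 12 it was 0.63. The ceiling was near in 51.5% of the window bases at time point 4, and the corrected ratio was 4.20. Without time point 3 or time point 4, R squared was 0.59 and TAT2 was no longer called.

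GAP1 encodes the general amino acid permease, which accepts nearly all amino acids and is the classical target of nitrogen catabolite repression. Its levels were 2.93, 2.89 and 2.83 at time points 1 to 3, and decreased to 2.48, 2.26, 2.34, 2.17 and 2.12 at time points 4 to 8. They returned through 2.29, 2.30, 2.44 and 2.46 at time points 9 to 12 to 2.87 and 3.21 at time points 13 and 14. Time point 15 stood apart at 2.45, between 3.21 before it and 2.90 after it. GAP1 fell from the first 3 time points into the middle of the cycle and rose again towards its end (R squared 0.67, limma, adjusted p = 0.0038, residual SD 0.11). The ratio between time points 14 and 8 was 1.51 (interval 1.38 to 1.66). Time points 14 and 15 are the libraries of lowest and highest depth, and at time point 15 the ceiling was near in 82.8% of the bases of the GAP1 window. After the correction for the ceiling, time point 15 was at 4.77 between 5.37 and 4.70, and the ratio between time points 14 and 8 was 2.14.

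MEP3 encodes the ammonium permease of low affinity and high capacity. Its levels were 1.56 and 1.54 at time points 1 and 2, 1.84 at time point 3, and 2.11, 2.10 and 2.16 at time points 4 to 6. They were between 1.70 and 1.92 at time points 7 to 11 and between 1.37 and 1.66 at time points 12 to 16. MEP3 rose from RC into a broad maximum at the end of OX and the start of RB and then fell (R squared 0.73, limma, adjusted p = 0.0013, residual SD 0.11). The ratio between time points 6 and 12 was 1.58 (interval 1.42 to 1.77). MEP3 and GAP1 were both called, and the correlation of their time courses was negative (r = -0.54 over 16 time points).

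The other ammonium permease genes did not pass the rule. MEP2 encodes the permease of highest ammonium affinity, which is also needed for filamentous growth on low ammonium. It had levels of 2.55, 2.62, 2.89 and 2.99 at time points 1 to 4 and lay between 2.09 and 2.52 from time point 5 on, lowest at time point 12. Its R squared of 0.598 was just under the limit (limma, adjusted p = 0.013), and MEP2 was called in 17 of 30 alternative settings. MEP1, a further permease of the same family, was lowest at time point 7 with 2.28 and highest at time point 14 with 3.20, around a median of 2.50, and the trend had an adjusted p of 0.085 in limma (R squared 0.41). In MEP1 a median of 49.8% of the window bases was within 10 reads of the ceiling, more than in any other of the 10 genes. The log2 level of MEP1 had r = -0.84 with the depth of the libraries over 16 time points. Depth, as the mean nuclear coverage, is the divisor of the level, so level and depth are not independent. With depth as a covariate the adjusted p in limma was 0.0071 and with the correction for the ceiling 0.0045, and MEP1 was called in both. With quantile normalization its range was 0.13.

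Of the 4 genes named above as induced by the SPS sensor, 0 passed the rule, against 52.2% of all genes. These 4 need not be all that respond to it, and the count is too small to set them apart. AGP1, a permease of broad specificity, was highest at time point 4 (2.86) and lowest at time points 11 and 12 (1.91 and 1.97), with a second high value of 2.61 at time point 14. Its ratio between time points 4 and 11 was 1.50 (interval 1.36 to 1.65), but the curve explained only 0.40 of the variance (limma, adjusted p = 0.080). BAP2 was at 2.35 at time points 3, 4 and 13 and at 2.51 at time point 14, and between 1.77 and 1.92 at time points 6 to 11 (limma, adjusted p = 0.086). BAP3 ran the other way, with its lowest level of 0.737 at time point 4 and its highest of 1.03 at time point 9 (ratio 1.40, interval 1.19 to 1.64, limma, adjusted p = 0.069). The BAP3 window held 256 to 429 reads and those of the other genes 341 to 1134. BAP3 was called with median-of-ratios scaling (limma, adjusted p = 0.011) and with quantile normalization (0.0020).

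TAT1, which encodes a permease of tyrosine and of branched-chain amino acids, had a sharp peak that a cubic curve does not follow. Its levels were 1.43, 1.54, 1.94 and 2.31 at time points 1 to 4, 1.59 at time point 5 and between 1.15 and 1.45 at time points 6 to 16. Time point 4 exceeded time point 7 by 2.01-fold (interval 1.79 to 2.26), and a step of 1.46-fold down (1.31 to 1.62) separated time points 4 and 5. The range of 0.95 was at percentile 78.3 of all genes, yet R squared was 0.41 (limma, adjusted p = 0.060), and TAT1 was not called in any of 30 alternative settings.

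In all, 5 of the 10 genes had their highest level at time point 4 (MEP2, AGP1, TAT1, TAT2 and MUP1), against 33.2% of all genes, and 3 at time point 14 (GAP1, MEP1 and BAP2), against 21.1%. The lowest level fell on time point 12 in 4 genes (MEP2, MEP3, TAT2 and MUP1), against 22.4%. At time point 4 BAP3 was the only one of the 10 genes at its lowest level, against 17.4% of all genes. Other scalings moved the median of all genes by -0.12 to 0.12 (median-of-ratios) and by -0.14 to 0.13 (quantile normalization) on the log2 scale, depending on the time point. Relative to the all-gene median of each time point, the log2 level of MUP1 was 0.66 at time point 4 and -0.76 at time point 12. That of TAT2 was 0.67 and -0.21 at the same time points, and that of BAP3 was -1.18 at time point 4 and -0.54 at time point 10. For MEP2 and AGP1 the relative range shrank to 0.31 and 0.39. TAT1, TAT2 and MUP1 were highest at time point 4 under every scaling. With quantile normalization MEP2 was highest at time point 3, AGP1 at time point 5, BAP2 at time point 13 and GAP1 at time point 1, and the lowest level of GAP1 moved to time point 4. Under this scaling MEP1, like GAP1, was lowest at time point 4, and BAP2 was lowest at time point 6. BAP3 was then lowest at time point 3 and highest at time point 12. MEP2 was lowest at time point 13 and MUP1 at time point 11. MEP3 was lowest at time point 2 under both scalings.

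**Figure D2:**
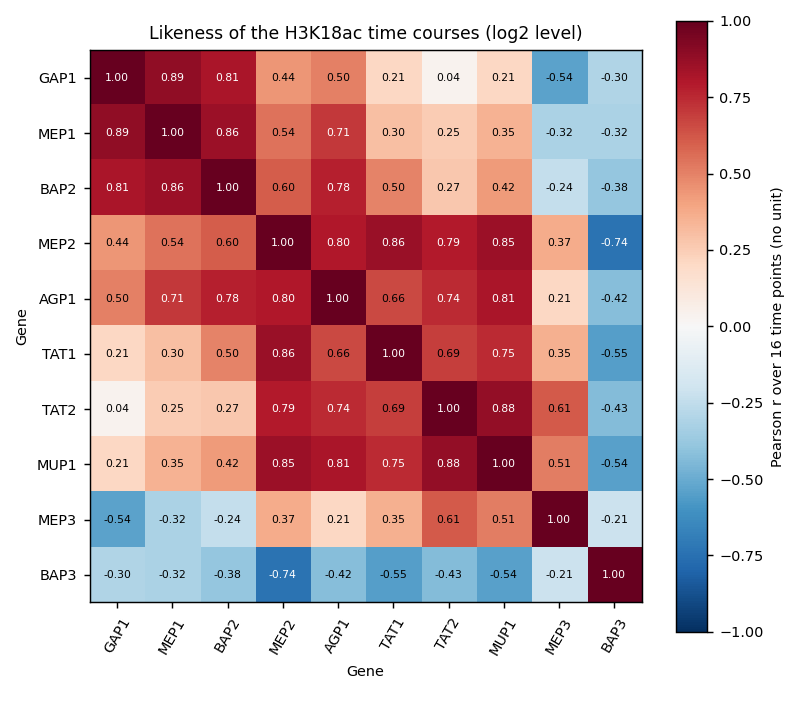
Pearson correlation of the log2 H3K18ac level over 16 time points between all pairs of the permease genes (both axes, genes), with the colour scale from -1 to 1. GAP1, MEP1 and BAP2 form a block with r between 0.81 and 0.89, and BAP3 is negative with all others. The levels of that block also fall with library depth, which is the divisor of the level.

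Pairs of time courses were compared by Pearson correlation of the log2 levels over the 16 time points, as a description, since the values of a time point share the library, its depth and its scaling. GAP1, MEP1 and BAP2 were alike, with r = 0.89 for GAP1 and MEP1, 0.86 for MEP1 and BAP2 and 0.81 for GAP1 and BAP2. Each of them also fell with the depth of the libraries, with r = -0.65 for GAP1, -0.84 for MEP1 and -0.62 for BAP2. For AGP1 and MEP2 the r with depth was -0.59 and -0.54. Depth is the divisor of each level, and the r with depth was not computed over all genes. Whether depth accounts for the likeness was not tested. Among MEP2, AGP1, TAT1, TAT2 and MUP1, r lay between 0.66 for AGP1 and TAT1 and 0.88 for TAT2 and MUP1. AGP1 was as close to genes of the first group, with r = 0.78 for BAP2 and 0.71 for MEP1, so the groups were not separate. The ammonium permeases did not follow a common course: r was 0.54 for MEP1 and MEP2, 0.37 for MEP2 and MEP3 and -0.32 for MEP1 and MEP3. BAP3 had a negative r with each of the other 9 genes, down to -0.74 with MEP2. BAP2 and TAT1, which are neighbours on chromosome II, had r = 0.50.

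Among all genes tested outside the 10, the time course most like that of MUP1 was the one of YML018C (r = 0.97), and for TAT2 it was that of PDR1, a regulator of drug resistance (r = 0.96). Those of MEP2 and AGP1 were closest to LYS21 of lysine synthesis (r = 0.96) and to ILV3 of branched-chain amino acid synthesis (r = 0.96). TAT1 was closest to URA2, which catalyses the first steps of pyrimidine synthesis (r = 0.95), although the range of URA2 was 1.77 and that of TAT1 0.95. GAP1 was closest to RGD1 (r = 0.97), MEP1 to ATG41 (0.98), BAP2 to RSN1 (0.95) and MEP3 to FYV5 (0.94). BAP3 had no gene with r of at least 0.9, and the closest was SRS2, a DNA helicase (r = 0.82). GAP1 in contrast had 199 genes with r of at least 0.9, and MUP1 had 143.

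**Figure D3:**
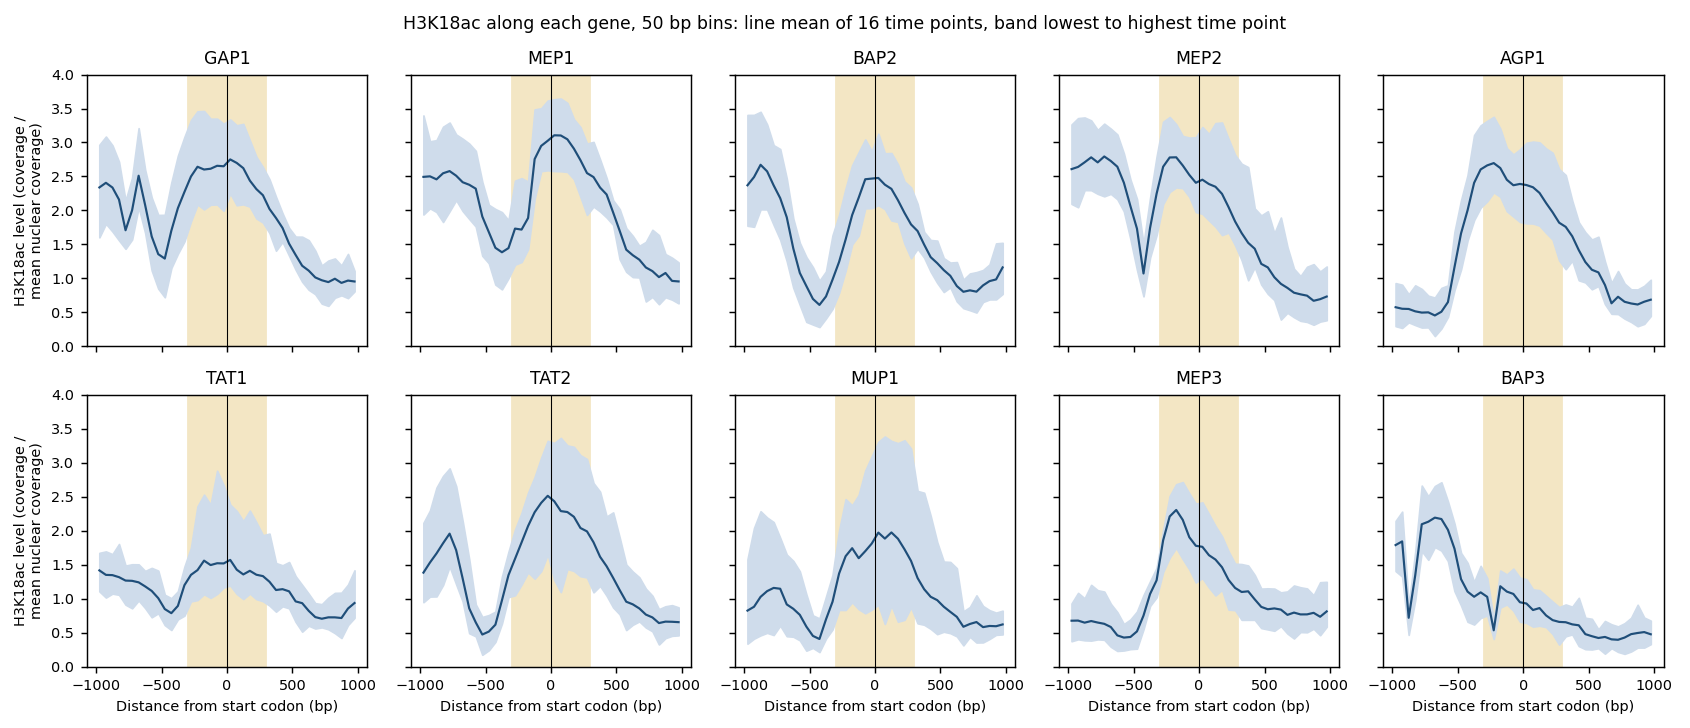
H3K18ac level (coverage divided by the mean nuclear coverage, vertical axis) against the distance from the start codon in bp (horizontal axis), in bins of 50 bp. The line is the mean of 16 time points, the blue band runs from the lowest to the highest time point and the yellow band marks the window of 300 bp on either side. GAP1 and MEP1 peak just after the start codon, MEP3 and AGP1 before it, and BAP3 has its maximum outside the window.

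The place of the acetylation differed between the genes. In GAP1 (YKR039W, chromosome XI, 515063 to 516871), the highest bin of 50 bp within 1000 bp of the start was centred 25 bp downstream of the start codon, with a mean level of 2.75, and in MEP1 (YGR121C, chromosome VII, 731449 to 732927) it was the same bin with 3.11. AGP1 (YCL025C, chromosome III, 76018 to 77919) had its maximum 225 bp upstream (2.70) and MEP3 (YPR138C, chromosome XVI, 810984 to 812453) 175 bp upstream (2.30). In MEP3 the upstream region was 1.38 times as acetylated as the downstream region, against 0.806 times in MEP1 and a median of 0.939 over all genes. TAT2 (YOL020W, chromosome XV, 286172 to 287950) and MUP1 (YGR055W, chromosome VII, 599417 to 601141) had peaks 25 bp upstream (2.51) and 125 bp downstream (1.97). Coordinates are those of the RefSeq R64 table, which gives coding regions.

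BAP3 (YDR046C, chromosome IV, 548762 to 550576) had no maximum at its start. Its highest bin lay 675 bp upstream with 2.19, in the 1283 bp between BAP3 and the divergent gene HEM12, while the highest bin of the window had 1.18. A narrow dip to a mean level of 0.286 lay at position -230 from the BAP3 start codon. The remainder of its coding region was at 0.711, and the ratio of the window to the remainder of the coding region was 1.24, against a median of 1.98 over 4650 genes. This ratio was highest in TAT2 (2.64) and MEP2 (2.50) and lowest in TAT1 (1.08).

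TAT1 (YBR069C, 376574 to 378433) and BAP2 (YBR068C, 373861 to 375690) lie in tandem on chromosome II with 883 bp between them, TAT1 upstream of BAP2. The 300 bp before the stop codon of TAT1 had a mean level of 2.25, higher than the 1.44 around its own start and than the all-gene median of 0.806 for the last 300 bp. The highest bin near BAP2 was also by the end of TAT1, 875 bp upstream of its start codon, with 2.67 against 2.48 at the start of BAP2. In the 300 bp after the TAT1 stop codon the level was 2.62 and 2.68 at time points 3 and 4, between 1.55 and 1.73 at time points 6 to 10, and 2.60 at time point 14. The last 300 bp of BAP2 had 2.50 and those of GAP1 2.05.

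**Figure D4:**
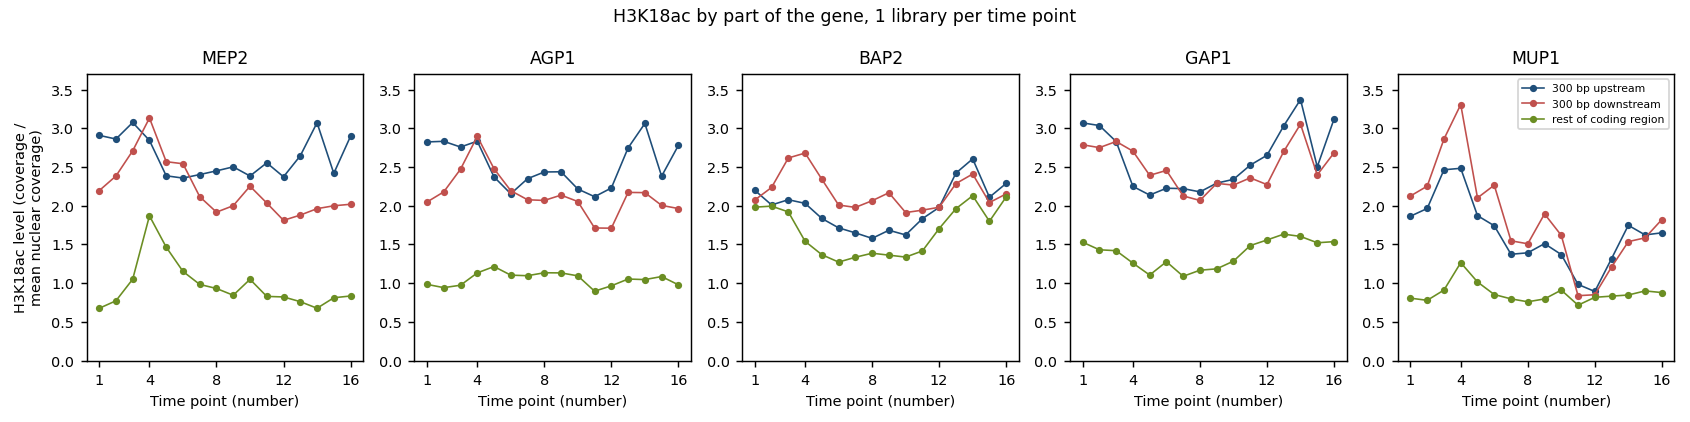
H3K18ac level (coverage divided by the mean nuclear coverage, vertical axis) at time points 1 to 16 (horizontal axis) in 3 parts of 5 permease genes: 300 bp upstream of the start codon, 300 bp downstream, and the remainder of the coding region. In MEP2 the downstream region and the remainder peak at time point 4 while the upstream region is highest at time points 3 and 14, and in MUP1 both sides of the start move together.

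Upstream and downstream regions were followed apart. In MUP1 and TAT1 they moved together, with r = 0.96 in both genes over 16 time points, against a median of 0.80 over all genes tested. In MEP2 (YNL142W, chromosome XIV, 357453 to 358952) r was only 0.24. The downstream region of MEP2 had 2.19, 2.38, 2.71 and 3.13 at time points 1 to 4, 2.57 and 2.54 at time points 5 and 6, and 1.81 to 2.25 after that, and it changed by the rule (R squared 0.70, limma, adjusted p = 0.0022). Its upstream region was highest at time points 3 and 14 (both 3.07) and lay between 2.36 and 2.91 otherwise. The start of the divergent neighbour YNL143C is 267 bp away, so that the 300 bp upstream of MEP2 lie within the window of YNL143C as well. YNL143C had its highest level at time point 14 and did not pass the rule (R squared 0.53, limma, adjusted p = 0.025).

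The remainder of the MEP2 coding region, which the window does not contain, had 0.674 at time point 1, 1.05 at time point 3 and 1.87 at time point 4. It then decreased through 1.46 and 1.15 at time points 5 and 6 to between 0.675 and 1.05 from time point 7 on. The ratio of its highest to its lowest time point was 2.77, and the range of 1.35 (log2) lay at percentile 97.2 of the 4650 genes long enough to have such a remainder, although the window itself ranged over 0.49. The last 300 bp of MEP2, which are part of this remainder, were at 2.65 at time point 4 and between 0.540 and 1.77 otherwise. The bin of 50 bp centred 875 bp downstream of the MEP2 start codon reached 1.21 at most. The increase was therefore not even along the coding region of MEP2. TAT1 also had a coding region at its highest at time point 4 (2.05 against 0.981 to 1.70 at all other time points). MUP1, TAT2 and BAP3 had theirs at time point 4 as well, at 1.26, 1.03 and 0.845. The share of all genes with a coding region highest at time point 4 was not counted. For the window that share was 33.2%. In BAP3 the maximum of the coding region came from the 3' end. Its last 300 bp, which are part of the remainder, were at 1.84 at time point 4 and between 0.830 and 1.31 otherwise. The 300 bp downstream of the BAP3 start codon were at their lowest, 0.592, at time point 4. In GAP1 the coding region followed the window (r = 0.80), as in TAT1 (0.87) and BAP2 (0.79), and in MEP1 it did not (r = -0.42). The median over all genes with such a remainder was 0.045.

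AGP1 and BAP2 had sides that differed in the time of the maximum. Upstream of AGP1 the level was highest at time point 14 (3.06), and downstream at time point 4 (2.90). BAP2 likewise had 2.60 upstream at time point 14 and 2.68 downstream at time point 4. Upstream of BAP2 the trend was called (R squared 0.66, limma, adjusted p = 0.0027) and downstream it was not (R squared 0.26, adjusted p = 0.27). Upstream and downstream of MEP1, time point 14 was the highest in both, and the upstream region was called (R squared 0.63, limma, adjusted p = 0.0055) while the downstream region was not (R squared 0.35, adjusted p = 0.16). By side, 4 of the 10 genes were called upstream and 4 downstream. Over all genes the counts were 3091 upstream and 2615 downstream, and genes called on both sides were not counted. Of the 4 genes called over the whole window, only MUP1 was called on both sides. GAP1 was not called downstream (R squared 0.52, limma, adjusted p = 0.030), and upstream neither MEP3 (R squared 0.58, adjusted p = 0.012) nor TAT2 (R squared 0.55, adjusted p = 0.011) was. The start of YGR121W-A, which diverges from MEP1, is 485 bp from that of MEP1, and YGR121W-A was called with its maximum at time point 13 (R squared 0.74, limma, adjusted p = 0.0012). The other 8 permease genes had no neighbour with a start within 600 bp.

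**Figure D5:**
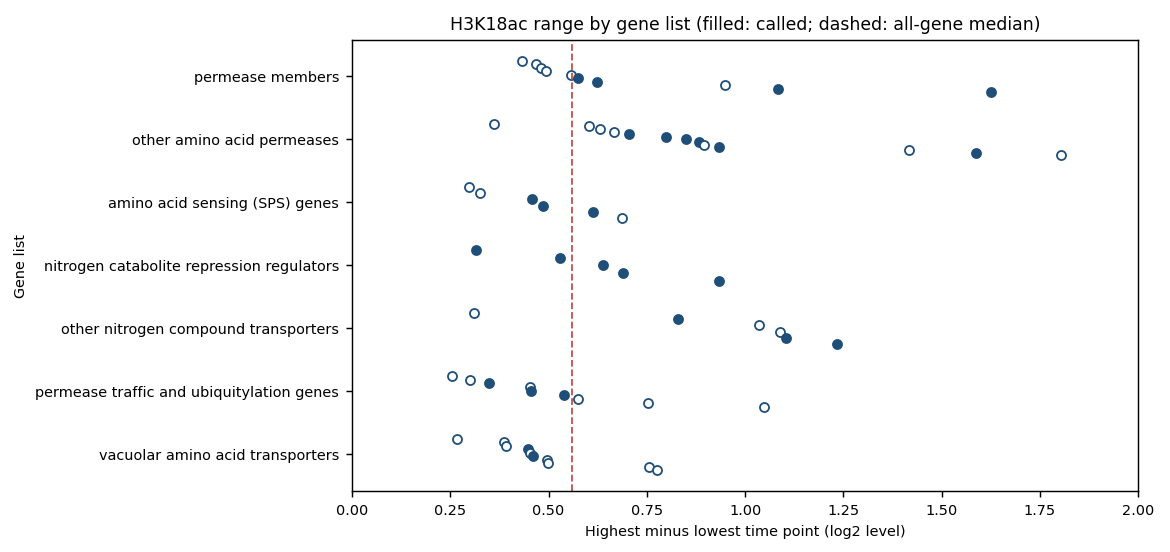
Range of the H3K18ac level between the highest and the lowest time point (log2, horizontal axis) for the genes of each list (vertical axis). Filled points passed the rule for a change over time, open points did not, and the dashed line is the median of all genes at 0.56. MUP1 has the largest range of the permease genes described, 1.63, and AGP2 that of the other amino acid permeases, 1.80.

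The remaining genes of nitrogen uptake and its control were read from the same fit. Of 13 other amino acid permease genes, 6 changed by the rule, against 52.2% of all genes. The highest level fell on time points 3 to 5 in 8 of them, against 41.3% of all genes. Their median range was 0.85. AGP2, a membrane protein that regulates the uptake of carnitine and polyamines, had the largest range, 1.80, with 0.430 at time point 4 and 1.75 at time point 14, and did not pass the rule (R squared 0.59, limma, adjusted p = 0.0062). AGP3 had the smallest, 0.36, around a mean level of 2.47. Of 6 transporters of other nitrogen compounds, 3 changed, a share near the 52.2% of all genes. The largest range was 1.23 in DAL4, the allantoin permease gene, which was highest at time point 4, and the smallest 0.31 in DUR3, the urea transporter gene, at a mean level of 2.55.

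All 5 regulators of nitrogen catabolite repression passed the rule, against 52.2% of all genes, and with so few genes the count does not set them apart. GZF3, a repressor of the GATA family, had a range of 0.93 with the highest level at time point 4 and the lowest at time point 12. The activator GLN3 had the smallest range of these, 0.32. Of 6 genes of the SPS sensor and its transcription factors, 3 changed, again near 52.2%, and the ranges ran from 0.30 in PTR3 to 0.69 in STP2, neither of which passed. Among 9 genes of permease traffic and ubiquitylation 3 changed, against 52.2% of all genes, and the ranges ran from 0.25 in BUL2, an adaptor of the ubiquitin ligase Rsp5, to 1.05 in DOA4, a ubiquitin hydrolase, which was lowest at time point 4. Neither BUL2 nor DOA4 passed. Of 11 vacuolar amino acid transporters, 10 were tested and 2 changed, against 52.2% of all genes, with ranges between 0.27 in VBA1 and 0.78 in AVT3, neither of which passed. VBA3 was under the coverage minimum.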

How the data were processed

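H3K18ac was measured by ChIP-seq in 16 libraries, 1 for each time point. The authors trimmed reads with Trimmomatic 0.32, mapped them to the Ensembl yeast genome with Bowtie (their processing notes list STAR), removed duplicates and reads with several matches, and used bedtools for the deposited coverage signal, which counts reads at each base and is corrected neither for depth nor for H3. Unique mapping lowers coverage where a gene has near-identical copies.

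Genes and start codons came from the RefSeq R64 table, with strand read from the locus name. The mean of each window (300 bp on either side) was divided by the mean nuclear coverage, 0.1 was added and the log2 taken. A mean coverage of 5 or more was required of a gene. The 16 time points were tested with limma 3.58.1 in R 4.3.3: a moderated F test of a polynomial of degree 3 with a trended prior, Benjamini-Hochberg adjustment over 5733 genes, adjusted p under 0.05 and R squared of at least 0.6. The degree and the limits follow the methods for RNA-seq. The fit was run on simulated data with independent errors and added cubic curves. That setting does not cover time points that resemble their neighbours. Phases are not in the labels and were not tested.

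Counting intervals (95%, exact Poisson for levels, Clopper-Pearson for ratios) use summed coverage divided by 51 bp, the read length inferred from the ceiling of 102 on the assumption of 1 read per position and strand. They cover counting error only and make no allowance for the ceiling. Ratios corrected for the ceiling can therefore lie outside them, as in MUP1, TAT2 and GAP1. The correction for the ceiling turns the share of the ceiling that is covered into a rate, assuming that reads start at random. Percentiles are among the genes tested. Other steps used Python 3.11.15, numpy 2.4.6, pandas 2.3.3, scipy 1.17.1 and matplotlib 3.10.9.

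The members and lists were chosen with earlier results of these data known. Named were the 10 members, the gene most like each in its time course among genes with separate windows, the genes of largest and smallest range in each list, and neighbours with a start within 600 bp. VBA3 was named after its values were seen. A planned motif search was not run, since no sequence was used here. Alternatives were a pseudocount of 0.01 or 1, a coverage minimum of 20 or none, median-of-ratios and quantile scaling, each side of the start alone, the correction for the ceiling, hours or a cosine and sine in place of the cubic, no minimum of R squared, depth as a covariate, 15 aligned time points and leaving out each time point.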

Additional observations from a re-analysis of the deposited data

How the results depend on the processing

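Of all alternatives tried, only the cubic polynomial of the hours moved the counts by over 1.5 times: 1335 genes in place of 2995, and 0 of the 10 permease genes in place of 4. Leaving out each time point in turn gave 2837 to 3315 genes and 3 to 6 permease genes. MUP1 kept its call in 29 of 30 alternatives, GAP1 and MEP3 in 28, TAT2 in 26. MEP2 was called in 17, MEP1 in 4, BAP3 in 3, BAP2 in 1, and AGP1 and TAT1 in 0. No permease gene that was called turned its direction. No paired analysis was possible because each time point has 1 library. The ceiling limits the precision of genes with high coverage, and 1 library per time point leaves the error of a single level unmeasured beyond counting.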
